A study of Mus musculus with 14 samples.

Results

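The genes described here are the Zfp zinc finger genes whose RNA was measurable in the mouse medial prefrontal cortex (mPFC). A gene was taken when its symbol was Zfp followed by a number and at most 1 letter, and when a probe for it read well above background on all 14 arrays. Of 364 such genes named on the array, 284 met this rule, out of 20887 named genes in all. Another 65 were above background on 1 to 13 arrays and 15 on none. The members were thus chosen by their measured brightness in every mouse and not by a contrast between groups, although a gene too dim in a single mouse was lost. The rule was not neutral between groups, since genes lost on 1 array alone were mostly lost on a naive array.

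The samples were mPFC tissue of 14 wild-type C57BL/6 mice, 1 mouse and 1 array each. The 5 naive mice had been moved between cages only. The other mice had gone through repeated social defeat stress, and the labels call 6 of them susceptible and 3 resilient by behaviour. All mice were taken at 4 h after the last session and perfused with ice-cold buffer under pentobarbital, and the mPFC was cut out with a 1.5 mm punch. The labels give neither age nor sex, and the tissue is a mixture of cell types. In such bulk tissue, fewer cells of a type and less RNA per cell cannot be told apart.

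Zfp is the mouse name for a large and mixed set of zinc finger proteins. Most carry rows of C2H2 fingers, each a short fold held by a zinc ion that reads a few bases of DNA, and many also carry a KRAB domain. The KRAB domain recruits the scaffold protein TRIM28, which brings the histone methyltransferase SETDB1 and heterochromatin proteins to the bound site, often a transposable element. KRAB zinc finger genes have multiplied by tandem duplication, so that many lie in clusters on a few chromosomes. Other genes of the same naming series do unlike things: Zfp207 acts in spindle assembly, Zfp365 is known as a binding partner of DISC1, and the product of Zfp185 is a LIM domain protein.

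Levels are given as log2 of the background-subtracted signal minus the array's 75th percentile, called log2 units here. A level above 0 lies above that percentile, and levels of different probes are not compared. Differences are log2 differences between group means with the standard error (SE) of the fit. They were tested with limma over all 14453 genes tested, with Benjamini-Hochberg adjustment and a threshold of 0.05. The genes tested had to be above background on every array of some group only, a looser rule than that for members. Shares over all genes tested are therefore not matched to the members in detection. Nothing in the labels says whether the mice came from separate litters or cages, and each mouse was treated as independent. The p-values rest on the spread within groups, which also holds differences between slides and arrays.

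The 8 promoter sequences printed next belong to members past the threshold in susceptible mice, to Zfp189 and, for Zfp14 and Zfp93, to further genes of chromosome 7 that carry the same short run of letters. Each shows the 150 bases before the start of the gene, 5′ to 3′ on the gene's strand, from RefSeq (GRCm38.p6). Capitals mark either CCAAT, on either strand, or a core that resembles known sites of the activator ZNF143. On 1 strand the core reads ACTACANNTCCC, where N is any base. Zfp111 lies at chr7:24208150-24208299 on the minus strand, Zfp93 at chr7:24270268-24270417 on the plus strand and Zfp14 at chr7:30051397-30051546 on the minus strand. Zfp874b lies at chr13:67484254-67484403, Zfp120 at chr2:150136679-150136828, Zfp687 at chr3:95015458-95015607 and Zfp800 at chr6:28398006-28398155, all on the minus strand. Zfp189 lies at chr4:49521026-49521175 on the plus strand.
Zfp111: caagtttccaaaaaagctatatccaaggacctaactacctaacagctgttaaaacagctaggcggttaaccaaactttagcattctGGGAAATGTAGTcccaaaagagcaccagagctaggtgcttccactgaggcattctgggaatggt
Zfp93: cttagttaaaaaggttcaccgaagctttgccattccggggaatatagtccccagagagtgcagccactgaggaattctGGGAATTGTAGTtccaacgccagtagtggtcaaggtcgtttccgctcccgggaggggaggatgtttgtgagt
Zfp14: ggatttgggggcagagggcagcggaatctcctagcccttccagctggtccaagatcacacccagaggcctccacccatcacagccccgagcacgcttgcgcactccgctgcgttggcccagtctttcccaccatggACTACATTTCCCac
Zfp874b: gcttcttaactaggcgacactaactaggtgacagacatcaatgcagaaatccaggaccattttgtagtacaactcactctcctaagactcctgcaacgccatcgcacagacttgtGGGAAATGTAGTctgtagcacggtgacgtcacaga
Zfp189: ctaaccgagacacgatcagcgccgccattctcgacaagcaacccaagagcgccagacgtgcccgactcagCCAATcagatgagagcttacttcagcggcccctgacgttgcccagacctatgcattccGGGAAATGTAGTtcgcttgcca
Zfp120: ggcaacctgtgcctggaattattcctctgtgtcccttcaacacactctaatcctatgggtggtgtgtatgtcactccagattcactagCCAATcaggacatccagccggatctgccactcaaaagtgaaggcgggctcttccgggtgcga
Zfp687: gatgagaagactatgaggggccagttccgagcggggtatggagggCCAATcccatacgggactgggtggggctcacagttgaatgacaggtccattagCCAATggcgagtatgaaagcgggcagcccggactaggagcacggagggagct
Zfp800: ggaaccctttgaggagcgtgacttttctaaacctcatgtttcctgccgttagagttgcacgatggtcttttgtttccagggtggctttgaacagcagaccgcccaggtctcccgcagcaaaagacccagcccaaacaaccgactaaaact
The core is present in the printed stretch of Zfp111, Zfp93, Zfp14, Zfp874b and Zfp189 and not in that of Zfp120, Zfp687 and Zfp800. These few sequences do not show how often the core goes with a rise. In the wider promoter windows described below, members that were lower in susceptible mice also hold it, among them Zfp691 (-0.39) and Zfp85 (-0.73). Of the 43 members with the core there, 28 had a difference above 0.

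The Zfp genes were detected more often than other named genes. On all 14 arrays, 78.0% of the 364 Zfp genes were well above background against 61.3% of the other 20523 named genes. Near the limit on the inside, Zfp429, Zfp647 and Zfp458 had mean levels of -2.63, -2.54 and -2.52, each on its own probe. Just outside it were 18 genes above background on 13 arrays, among them Zfp219, Zfp811 and Zfp143, at -1.86, -1.97 and -2.21. Levels of different probes are not compared with each other here. For 14 of these 18 the missing array was naive mouse 3, the dimmest array of the set. It was naive mouse 1 for 2 genes, naive mouse 2 for 1 and susceptible mouse 4 for 1. Zfp36, which is a CCCH-finger protein that promotes the decay of AU-rich mRNAs, and Zfp804a, whose human counterpart lies at a schizophrenia risk locus, were not well above background on any array by their probes here.

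Members varied between mice of 1 group about as much as other genes. The residual SD, the spread around the 3 group means, had a median of 0.22 log2 units over the members against 0.23 over all genes tested. Zfp263, Zfp747 and Zfp629 varied least, with residual SDs of 0.069, 0.076 and 0.081, and Zfp263 stayed between 0.25 and 0.48 in all 14 mice. Zfp185, Zfp385b and Zfp512 varied most, with 0.76, 0.63 and 0.60. The level of Zfp185 ran from -3.11 in resilient mouse 2 to 0.24 in naive mouse 2.

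Technical features touch every comparison. Naive mice occupied row 1 of every slide and defeated mice row 2, so the position on the slide cannot be told apart from defeat. The arrays came from 3 slides read on 2 scan days. Slides 1 and 2 hold all groups, and slide 3 holds only naive mice 4 and 5 and susceptible mice 5 and 6. Deviations from the group means were correlated within slides (median r = 0.27 for arrays of different groups) and not across them (-0.079), and slide took up a median of 36.0% of the members' within-group spread against 38.5% for all genes. The counts of each comparison are therefore also given with slide as a block, and for some genes the differences within slides are given. Array brightness, the 75th percentile of log2 signal, ran from 7.25 to 8.64 over naive arrays, from 7.69 to 9.24 over susceptible arrays and from 7.96 to 8.17 over resilient arrays. On slide 1 it was 7.31 for the naive array and 7.83 to 8.17 for the defeated arrays. On slide 2 the naive arrays had 7.25 and 7.36 and the defeated arrays 7.69 to 7.97. On slide 3 the naive arrays had 8.54 and 8.64 and the susceptible arrays 9.24 and 8.63. Every defeated array was thus brighter than every naive array of its slide on slides 1 and 2. Neuron markers were high on every array (median level over the markers 5.29 to 5.87). Of the 6 meningeal fibroblast markers, all were lower in susceptible than in naive mice (median difference -1.06) and 0 passed the threshold. Their median level per array was -1.63 to 1.59 in susceptible mice against 0.36 to 2.01 in naive mice. All 6 astrocyte markers were also lower (median -0.38, 1 past the threshold), as were 4 of 5 tested endothelial markers (median -0.45, 1 past it) and all 4 tested markers of pericytes and smooth muscle (median -0.76, 0 past it). All 6 inhibitory neuron markers (median 0.25) and 4 of 5 neuron markers (median 0.20) were higher, with 0 past the threshold, and 3 of 3 tested neutrophil markers were higher (median 3.53, 2 past it). The part of these features in the results that follow was not tested.

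The first question was how the Zfp genes of susceptible mice differed from those of naive mice. In susceptible mice 4 members rose and 2 fell. Zfp111, Zfp114, Zfp874b and Zfp120, all of the C2H2 type, were 1.32 to 1.57 times as high, whereas Zfp687 and Zfp800 were lower by 1.33 and 1.78 times. The count of 6 is 2.11% of the members, beside 2.6% of all genes tested that passed the threshold. In the higher direction 1.41% of members passed against 1.64% of all genes, and in the lower direction 0.704% against 0.962%. The share of members called was thus near that of all genes.

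Zfp111 had the largest rise. Its level was -1.58, -1.49, -1.82, -1.35 and -1.34 in the 5 naive mice, ran from -1.01 over a median of -0.90 to -0.66 in the 6 susceptible mice, and was -0.81, -0.67 and -1.0 in the 3 resilient mice. Every defeated mouse was above every naive mouse. The difference of susceptible from naive was 0.65 ± 0.11 (SE, limma adjusted p = 0.0175), and it was 0.68, 0.94 and 0.35 within slides 1, 2 and 3. It was the only member that stayed past the threshold when any 1 array was left out, with a highest adjusted p of 0.0481.

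Zfp874b, which lies beside its near namesake Zfp874a on chromosome 13, had the least spread among naive mice of the genes that rose. The naive mice lay between -0.69 and -0.59, with a mean of -0.64 ± 0.04 (SD, n = 5). The susceptible mice ran from -0.40 over a median of -0.24 to -0.0015, and the resilient mice were at -0.13, -0.19 and -0.42. The groups did not overlap, and the difference of susceptible from naive was 0.43 ± 0.09 (adjusted p = 0.032). Zfp874a, whose promoter window also holds the core, differed by 0.39 ± 0.14 (adjusted p = 0.109, and 0.0191 with slide as a block). Signals of such near copies may not be separable by their probes.

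Zfp120 was at -1.44, -1.38, -1.18, -1.33 and -1.30 in naive mice and between -1.10 and -0.79 in susceptible mice, with a median of -0.93. The resilient mice had -1.0, -0.76 and -1.09. All 6 susceptible mice were above all naive mice, and the difference was 0.40 ± 0.09 (adjusted p = 0.0404). A second probe of this gene gave a smaller difference, 0.085.

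Zfp114, next to Zfp111 on chromosome 7, overlapped between groups. It was at -1.82, -1.20, -1.76, -1.61 and -1.42 in naive mice, from -1.25 over -1.10 to -0.88 in susceptible mice and at -1.26, -1.02 and -1.21 in resilient mice. Naive mouse 2 was as high as the defeated mice, and the other 4 naive mice were lower than all of them. The difference was 0.47 ± 0.12 (adjusted p = 0.0484).

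Zfp687, whose human counterpart forms a chromatin complex with ZMYND8 and ZNF592, was lower. Naive mice had 0.40, 0.49, 0.72, 0.60 and 0.55. Susceptible mice ran from -0.05 over 0.18 to 0.26, and resilient mice had 0.24, 0.16 and 0.20. No defeated mouse reached the lowest naive mouse. The susceptible mice were lower by 0.41 ± 0.09 on the log2 scale, a difference of -0.41 (adjusted p = 0.032).

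Zfp800 had the largest fall among the called members. It was at -1.32, -1.06, -0.63, -1.49 and -1.40 in naive mice, from -2.56 over -2.01 to -1.30 in susceptible mice and at -1.82, -2.20 and -2.01 in resilient mice. Of the 6 susceptible mice, 5 were below every naive mouse. The difference was -0.83 ± 0.21 (adjusted p = 0.0469). It was uneven between slides, at -0.69, -1.60 and -0.14, and the size in slide 3 was the smallest.

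The count of 6 moved with single mice. It was 16 without susceptible mouse 6 and 11 without naive mouse 5, and both sets held all 6 genes. It was 1 without naive mouse 3 or 4 or susceptible mouse 1, 2 or 4, and 2 without naive mouse 2 or susceptible mouse 3 or 5. It was 3 without naive mouse 1 or resilient mouse 1, and 4 without resilient mouse 2 or 3.

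**Figure D1:**
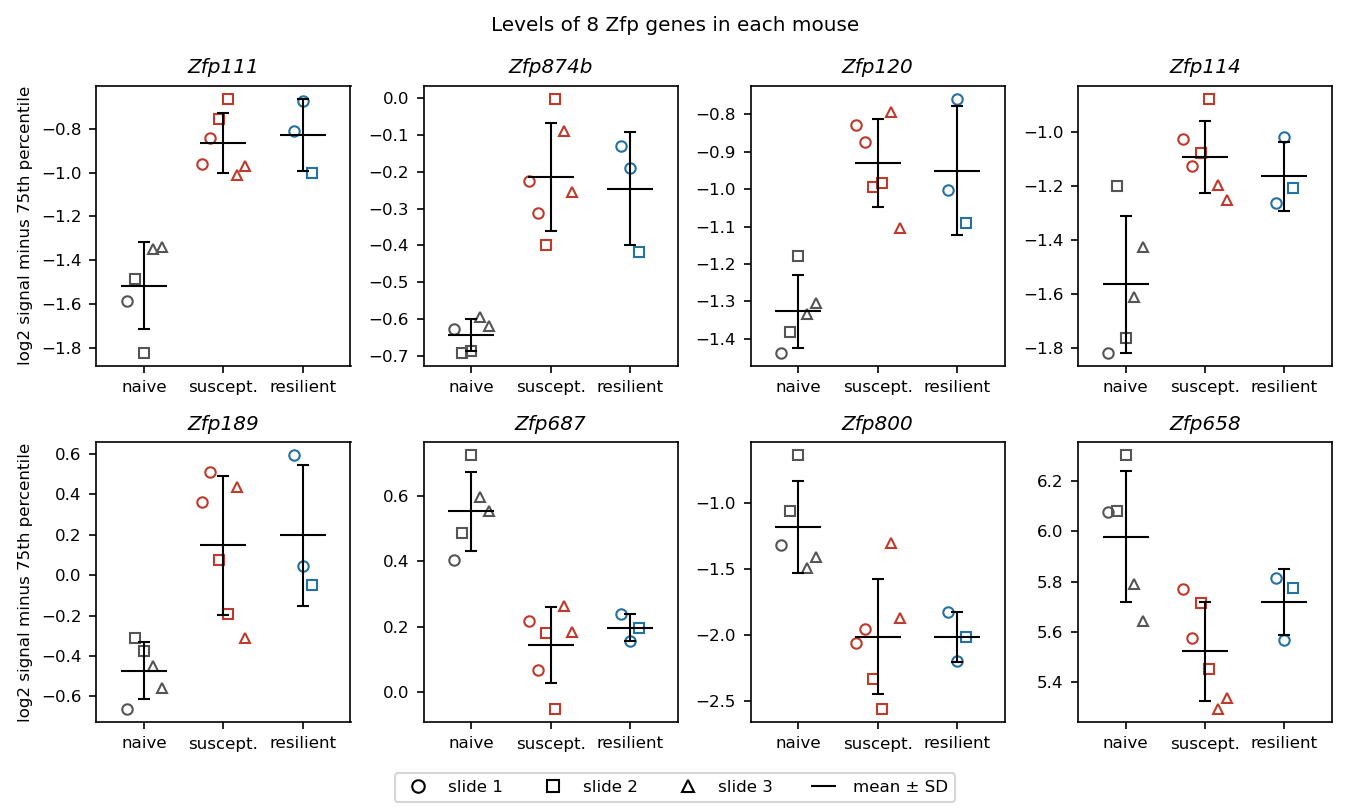
Levels of 8 Zfp genes (vertical axis, log2 signal minus the array's 75th percentile) in 5 naive, 6 susceptible and 3 resilient mice, 1 symbol per mouse, with symbol shape for the slide and black bars for the group mean ± SD. The defeated mice of Zfp111, Zfp874b and Zfp120 lie above all naive mice and those of Zfp687 below them, while the groups of Zfp114, Zfp800 and Zfp658 overlap.

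Zfp189 is the member most tied to this kind of stress in earlier work, where it was described in mouse prefrontal cortex as a zinc finger gene acting downstream of CREB in resilience to social defeat. Its level was -0.66, -0.31, -0.37, -0.45 and -0.56 in naive mice, from -0.31 over 0.22 to 0.51 in susceptible mice and 0.60, 0.05 and -0.05 in resilient mice. Every susceptible and every resilient mouse was above every naive mouse, although the lowest susceptible mouse and the highest naive mouse round to the same value. The difference from naive was 0.62 ± 0.17 in susceptible mice (adjusted p = 0.0588, and 0.0312 with slide as a block) and 0.67 ± 0.20 in resilient mice (adjusted p = 0.107, and 0.114 with the block). Within slides the susceptible difference was 1.1, 0.29 and 0.57. Susceptible and resilient mice are compared with the same 5 naive mice, so these values are not independent of each other.

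The other members that came nearest to the threshold were Zfp518b among those higher and Zfp467, Zfp658 and Zfp574 among those lower. Zfp518b, whose human counterpart binds the histone methyltransferase G9a, was higher by 0.39 ± 0.10 (adjusted p = 0.0515), with all 6 susceptible mice between -1.69 and -1.41 and all naive mice between -2.24 and -1.76. Zfp467 differed by -0.41 ± 0.11 (0.062), with 2.04 to 2.36 in susceptible and 2.43 to 3.00 in naive mice. The 4 detected probes of Zfp467 gave differences from -0.43 to -0.13. Zfp658, the counterpart of a human repressor that responds to zinc, differed by -0.46 ± 0.13 (0.0659), and Zfp574 by -0.38 ± 0.11 (0.0732). Groups did not overlap for 9 members that were higher in susceptible mice (3.17% of members, 2.49% of all genes) and for 2 that were lower (0.704%, 1.64%). The 9 were Zfp111, Zfp874b, Zfp120, Zfp189, Zfp518b, Zfp14, Zfp101, Zfp35 and Zfp280b, and the 2 were Zfp687 and Zfp467. These lists were read off after their values were seen.

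Over all 284 members the differences between susceptible and naive mice were small. Their median was 0.046 against 0.019 for all genes tested, and 166 members (58.5%) were above 0 against 53.2% of all genes. A change of 1.5-fold or more was seen in 5 members (1.76%) and in 5.72% of all genes, which had passed a looser detection rule. These 5 were Zfp185, Zfp800 and Zfp85 on the lower side (-1.02, -0.83 and -0.73) and Zfp111 and Zfp189 on the higher side (0.65 and 0.62). Zfp185 did not pass the test (-1.02 ± 0.41, adjusted p = 0.152): naive mice ran from -2.15 to 0.24 and susceptible mice from -2.61 to -1.58, and the difference was -2.0 within slide 2 against -0.32 and -0.21 in slides 1 and 3. Zfp85 was at -2.01, -2.10, -1.41, -0.66 and -2.36 in naive mice and between -2.70 and -2.15 in susceptible mice (adjusted p = 0.0988). Per array, the median level of the members was between -0.21 and -0.19 in naive mice, between -0.25 and -0.027 in susceptible mice and between -0.19 and -0.048 in resilient mice.

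**Figure D2:**
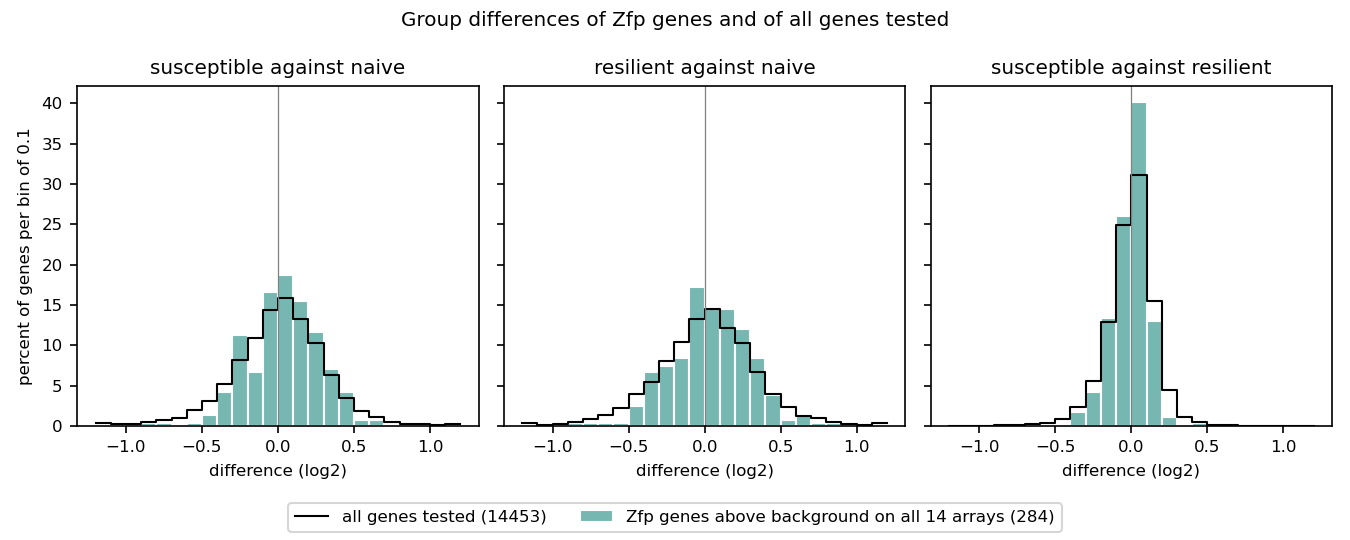
Percent of genes (vertical axis) per bin of 0.1 in the log2 difference (horizontal axis) for the 284 Zfp genes (bars) and for all 14453 genes tested (line) in the 3 comparisons; the end bins take in all values beyond them. The bars for susceptible and resilient against naive have few genes in the tails, and those for susceptible against resilient gather around 0.

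With slide as a block, 33 members passed the threshold in susceptible against naive mice, 25 higher and 8 lower. This is 11.6% of members beside 15.3% of all genes, with 8.80% against 8.83% in the higher and 2.82% against 6.48% in the lower direction. All 6 genes called without the block were among the 33, and all 33 had the same sign on each of the 3 slides. The slide-blocked fit picked these 33, so that this count is no independent check, and the difference within slide 1 rests on its only naive mouse, naive mouse 1. Over all members, 81 were higher on all 3 slides (28.5%, against 29.5% of all genes) and 46 lower (16.2%, against 22.4%). When 1 array at a time was left out with the block, 9 of the 33 stayed past the threshold throughout, namely Zfp111, Zfp207, Zfp874b, Zfp93 and Zfp874a, which were higher, and Zfp408, Zfp658, Zfp691 and Zfp687, which were lower. The count of 33 fell to 10 without naive mouse 1, 13 without susceptible mouse 4 and 19 without susceptible mouse 5, and stayed between 26 and 46 without any other.

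Zfp207 shows what the block does. Naive mice had 0.24, 0.24 and 0.04 on slides 1 and 2 and 0.87 and 0.97 on slide 3. Susceptible mice ran from 0.57 over 0.84 to 1.47 and overlapped the naive mice of slide 3. Taken within slides, the differences were 0.54, 0.55 and 0.48, and the blocked difference was 0.53 ± 0.08 (adjusted p = 0.00712) against 0.49 ± 0.20 without the block (0.158).

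Zfp691 and Zfp408 were of the same kind in the other direction. Zfp691 was at 1.40, 1.50 and 1.47 in the naive mice of slides 1 and 2 and at 0.46 and 0.40 in those of slide 3. It was lower in susceptible mice by -0.50, -0.52 and -0.33 within the slides, and the blocked difference was -0.45 ± 0.09 (adjusted p = 0.0131, and 0.358 without the block). Zfp408, whose human counterpart is tied to retinal vessel disease, was at 8.50, 8.63, 8.88, 8.11 and 7.95 in naive mice and between 7.52 and 8.22 in susceptible mice, with a blocked difference of -0.50 ± 0.08 (0.00714). Zfp658 had 6.08, 6.08, 6.30, 5.79 and 5.64 in naive mice, from 5.29 over 5.51 to 5.77 in susceptible mice, and a blocked difference of -0.48 ± 0.09 (0.0102).

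Among the 33, Zfp410, known as an activator of the chromatin remodeller gene Chd4, was higher by 0.36 ± 0.09 with the block (adjusted p = 0.0262, and 0.111 without it). Its level was -1.25, -1.28, -1.11, -0.91 and -0.86 in naive mice and between -0.89 and -0.49 in susceptible mice. Those of the 33 not yet named were Zfp81, Zfp87, Zfp420, Zfp605, Zfp706, Zfp763, Zfp831, Zfp318, Zfp551, Zfp882 and Zfp128 on the higher side and Zfp53 on the lower. Zfp14, Zfp81 and Zfp318 have further detected probes, at least 1 of which had the opposite sign (down to -0.080, -0.072 and -0.14). Of the 8 genes among the 33 with several detected probes, 5 had 1 sign over all their probes. Over all members with several probes this held for 43 of 76.

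**Figure D3:**
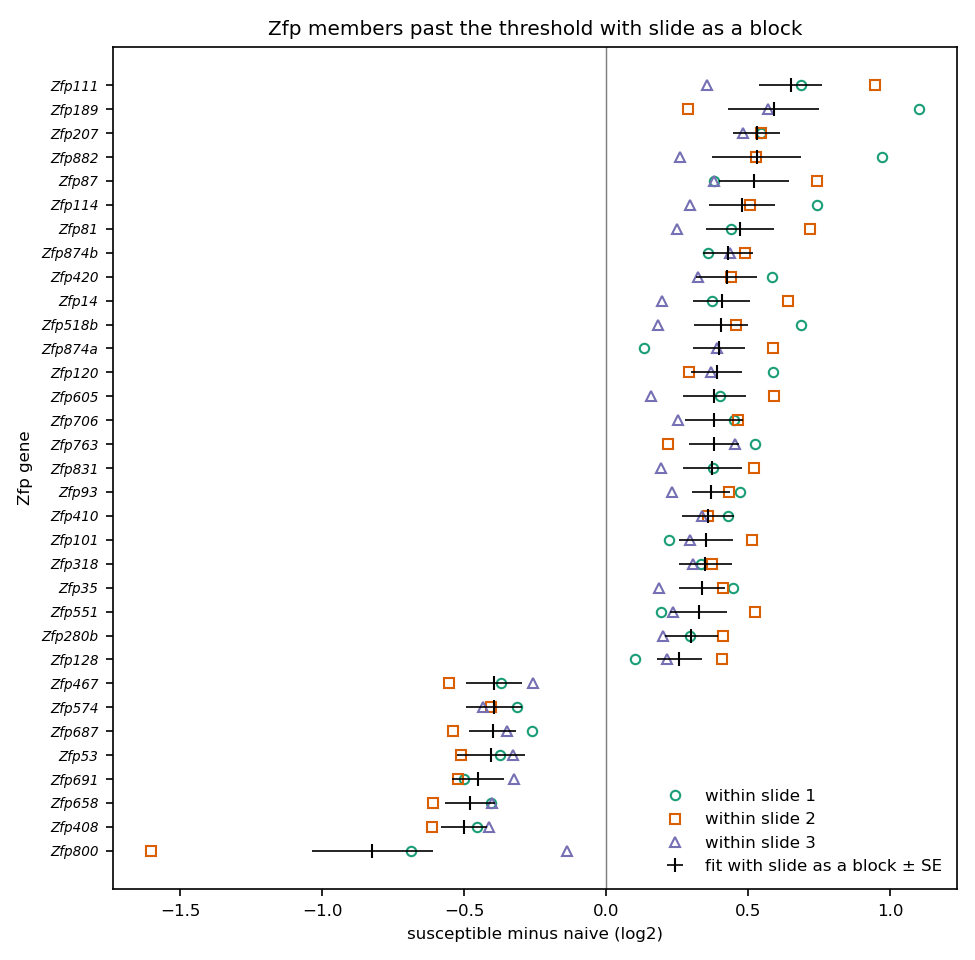
Difference of susceptible from naive mice (horizontal axis, log2) for the 33 Zfp genes past the threshold with slide as a block (vertical axis), computed within slide 1, 2 and 3 (symbols) and from the blocked fit (bar, ± SE). All symbols of a gene lie on 1 side of 0, with Zfp207 among the closest together and Zfp800 the widest apart, from -1.60 to -0.14.

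The second comparison asked how resilient mice differed from naive mice. With 3 resilient mice, 0 members passed the threshold in limma, beside 0.152% of all genes (0.0899% higher and 0.0623% lower), while 52 members (18.3%, against 20.3% of all genes) had an unadjusted p under 0.05. Zfp111 (0.69 ± 0.13, adjusted p = 0.0655) and Zfp148 (0.61 ± 0.14, 0.0841) had the smallest p among those higher. Zfp148, which encodes the GC-rich binding protein ZBP-89, was at 3.66, 3.35 and 3.39 in resilient mice and between 2.69 and 3.04 in naive mice. Zfp867 (-0.67 ± 0.18, 0.0959) was among those lower, at -2.06, -1.85 and -2.0 in resilient mice and between -1.55 and -0.94 in naive mice. A second detected probe gave smaller differences, -0.18 for Zfp867 and 0.43 for Zfp148.

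With slide as a block 7 members passed, 2.46% of members beside 3.54% of all genes. Zfp207, Zfp111, Zfp93, Zfp831 and Zfp518b were higher (1.76%, against 2.04% of all genes), and Zfp408 and Zfp691 were lower (0.704%, against 1.49%). Their blocked differences were 0.57, 0.69, 0.43, 0.66 and 0.49 for the first 5 and -0.54 and -0.48 for the others. All 7 are also among the 33 of susceptible mice, a comparison that shares the naive mice. Without the block, Zfp207 and Zfp691 differed by 0.29 ± 0.24 and -0.11 ± 0.30 from naive (adjusted p = 0.523 and 0.872). Leaving out naive mouse 1 or 2, susceptible mouse 2 or 5, or resilient mouse 1 or 3 brought the count of 7 to 0, leaving out resilient mouse 2 brought it to 1, and leaving out susceptible mouse 6 brought it to 21. Resilient and naive mice did not overlap for 25 members that were higher (8.80%, against 8.32% of all genes) and 12 that were lower (4.23%, against 6.41%).

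The 6 genes called in susceptible mice had these values in resilient mice, side by side. Zfp111 differed from naive by 0.65 in susceptible and 0.69 in resilient mice. Zfp114 differed by 0.47 and 0.40, Zfp874b by 0.43 and 0.40, and Zfp120 by 0.40 and 0.38. Zfp687 differed by -0.41 and -0.36, and Zfp800 by -0.83 and -0.83. In resilient mice the adjusted p of these genes was between 0.0655 and 0.140.

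The third comparison set susceptible against resilient mice. In limma 0 of 284 members passed the threshold, as did 0% of all genes. At an unadjusted p under 0.05 there were 0 members, beside 0.747% of all genes. With slide as a block there were 5 (1.76%, against 1.93% of all genes), and again 0 after adjustment. The median difference over members was 0.0091 against 0.0083 for all genes, and no member differed by 1.5-fold. Zfp335, a subunit of histone methyltransferase complexes needed for neurogenesis, had the largest difference, 0.48 ± 0.23 (adjusted p = 1.00). It was at -2.05, -1.58 and -1.62 in resilient mice and from -1.54 over -1.35 to -0.81 in susceptible mice, and it was 1 of 2 members in which all susceptible mice were above all resilient mice (0.704%, against 0.304% of all genes). In the naive mice it spread from -2.01 to -0.84 and took in nearly all of both groups. Slide 3 holds no resilient mouse, and its susceptible mice 5 and 6 had the highest susceptible levels, -1.12 and -0.81. Its naive mice 4 and 5 were likewise the highest naive mice. With slide as a block the highest difference over all members was 0.39, so that of Zfp335 was then at most 0.39. The part of slide in the 0.48 was not tested. The other member with all susceptible above all resilient mice was Zfp729b, with a difference of 0.11 ± 0.11. In the other direction 0 members were without overlap (0.318% of all genes). Zfp536 (-0.35 ± 0.17), Zfp57 (-0.33 ± 0.21), Zfp488 (-0.29 ± 0.18) and Zfp148 (-0.24 ± 0.14) were lower in susceptible mice without passing the test.

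Zfp genes with known roles in chromatin or brain development mostly did not pass. Zfp57, which with TRIM28 keeps imprinted loci methylated, differed by -0.30 ± 0.18 in susceptible mice (adjusted p = 0.316). Zfp809, which silences proviral sequences, differed by 0.05 ± 0.10 (0.797), and Zfp568, a repressor of a placental Igf2 promoter, by 0.14 ± 0.15 (0.599). A second detected probe of Zfp809 gave larger differences, 0.39 in susceptible and 0.41 in resilient mice. Zfp281, a repressor in pluripotent cells, was nearly level at -0.012 ± 0.11 (0.962). By the brightest probe, none of these 4 passed the test in either comparison with naive mice.

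The neural regulators had wider values. Zfp521, which promotes the early neural fate, differed by -0.50 ± 0.17 in susceptible mice (adjusted p = 0.108), with naive mice at -1.03, -0.78, 0.16, -0.73 and -0.74 and susceptible mice between -1.31 and -0.95. Naive mouse 3 stood far above the rest. Zfp536, which restrains neuronal differentiation, differed by -0.36 ± 0.14 (0.147), and 5 of 6 susceptible mice were below all naive mice. Zfp365 differed by -0.30 ± 0.14 (0.214), Zfp423, a cerebellar and adipocyte regulator, by -0.22 ± 0.16 (0.406), and Zfp292 by -0.11 ± 0.14 (0.664). Zfp462, whose human counterpart is a neurodevelopmental disease gene, differed by 0.21 ± 0.17 (0.475). Further detected probes gave a larger difference for Zfp462 (0.49) and smaller ones for Zfp423 (down to -0.050) and Zfp536 (-0.26).

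The co-repressors on which KRAB zinc finger proteins depend were examined as a list. Of 30 genes, 26 were tested and 0 passed the threshold in either comparison with naive mice, with a median difference of 0.032 in susceptible mice. At an unadjusted p under 0.05, 4 of the 26 were counted in susceptible and 8 in resilient mice, beside 24.0% and 20.3% of all genes. Trim28 itself was higher by 0.25 ± 0.16 (adjusted p = 0.346) and Setdb1 by 0.013 ± 0.11 (0.953). With slide as a block, Trim28, Atf7ip and Hdac2 were higher (blocked differences 0.28, 0.34 and 0.54) and Suv39h1 and Trim33 lower (-0.31 and -0.45) in susceptible mice, 5 of 26 beside 15.3% of all genes.

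A few genes of other zinc finger families passed without a block, 4 of 115 tested (3.48%) in 5 families beside 2.6% of all genes. Of 34 tested Zbtb genes, which pair fingers with a BTB domain, Zbtb26 (0.92 ± 0.16, adjusted p = 0.02) and Zbtb16 (0.94 ± 0.18, 0.0304) rose in susceptible mice. Klf9, a gene known to respond to glucocorticoids, rose by 0.55 ± 0.12 (0.0383) among 24 Klf and Sp genes, and Zc3h12b rose by 0.67 ± 0.14 (0.0313) among 16 Zc3h genes. Of 20 Zscan and Zkscan genes and 21 Zdhhc palmitoyltransferase genes, 0 passed. Over the 5 families 31 genes (27.0%) had an unadjusted p under 0.05 in susceptible mice and 27 (23.5%) in resilient mice, beside 24.0% and 20.3% of all genes, and without the block 0 fell in susceptible and 0 passed in resilient mice. With slide as a block, 14 were higher and 6 lower in susceptible mice (17.4% beside 15.3% of all genes), the lower ones being Zbtb20, Zbtb37, Zkscan17, Klf4, Sp3 and Zdhhc23. In resilient mice Zbtb26, Zbtb45, Zc3h15, Zdhhc17 and Zdhhc6 were then higher (4.35% beside 3.54%).

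Members are spread over the chromosomes as the clusters are. Chromosome 7 holds 70 of the 284, chromosome 17 holds 34 and chromosome 13 holds 27. In the order of the protein-coding genes of the RefSeq annotation, 19 runs of at least 4 Zfp genes with no other gene between them were found, and they hold 92 members. The median difference of susceptible from naive mice was 0.057 for these 92, 0.060 for the 56 in runs of 2 or 3, and 0.026 for the 136 with no Zfp neighbour. The groups had 10, 5 and 10 genes higher and 1, 1 and 6 genes lower with slide as a block. These are 10.9%, 8.93% and 7.35% higher beside 8.83% of all genes, and 1.09%, 1.79% and 4.41% lower beside 6.48%.

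One run on chromosome 7 held both Zfp111 and Zfp114. It reads Zfp180, Zfp112, Zfp235, Zfp114, Zfp111, Zfp109, Zfp108, Zfp93, Zfp61 and Zfp94, and 9 of these 10 are members. In susceptible mice 8 of 9 had a difference above 0, with a median of 0.22 and a range from -0.065 (Zfp180) to 0.65 (Zfp111), and in resilient mice 8 of 9, with a median of 0.32. The differences were largest at its middle genes, 0.47 at Zfp114, 0.65 at Zfp111, 0.33 at Zfp108 and 0.37 at Zfp93, and smaller toward the ends. Zfp111, Zfp114 and Zfp93 passed the threshold with the block. Neighbours in such a run may descend from 1 gene and may share probe sequence, and neither descent nor probe match between them was examined here.

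Other runs differed in sign. The 15 members from Zfp455 to Zfp273 on chromosome 13 ranged from -0.73 (Zfp85) to 0.52 (Zfp87), with 9 above 0, and Zfp874a, Zfp874b and Zfp87 rose with the block. The 13 from Zfp84 to Zfp146 on chromosome 7 had a median of 0.14 with 10 above 0. On chromosome 17, all 5 members from Zfp760 to Zfp994 were below 0 (median -0.22) in susceptible and also in resilient mice (-0.20), and 0 of these passed the test, while all 4 from Zfp472 to Zfp563 were above 0 in susceptible mice (median 0.27). These runs were chosen for description after their values were seen.

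**Figure D4:**
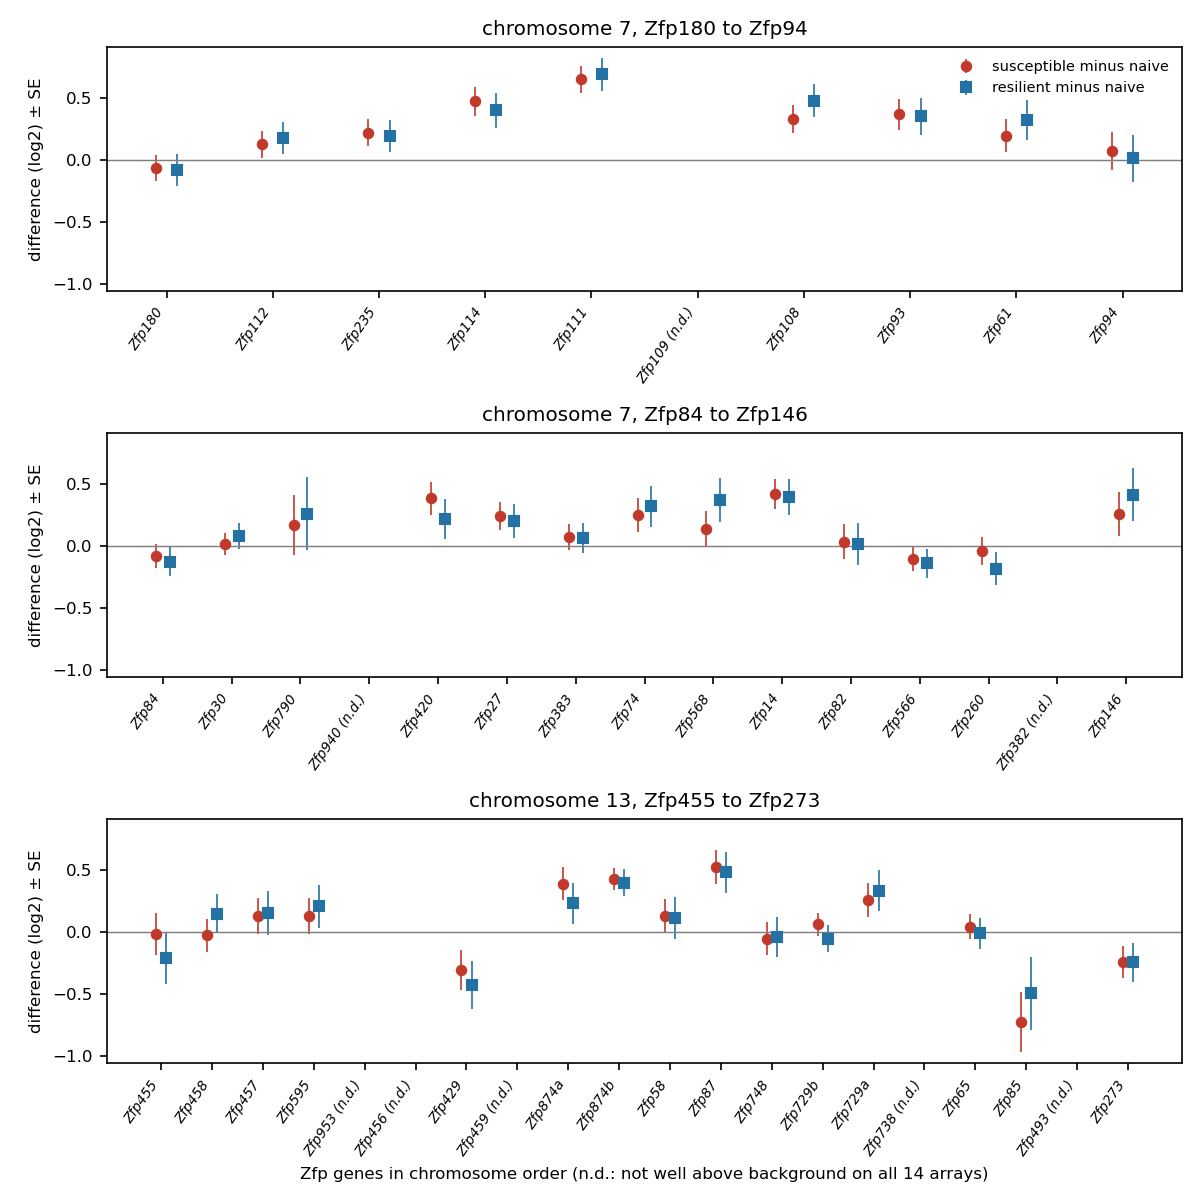
Differences from naive mice (vertical axis, log2 ± SE) of susceptible (circles) and resilient mice (squares) for the Zfp genes of 3 runs in chromosome order (horizontal axis); genes marked n.d. were not well above background on all 14 arrays. In the first run the values climb to 0.65 and 0.69 at Zfp111 and fall off on both sides, and in the third they run from -0.73 at Zfp85 to 0.52 at Zfp87.

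Promoter windows of 300 bases, 250 before to 50 after the gene's start, were found in RefSeq for 238 of the 284 members. The core ACTACANNTCCC, searched on both strands (the other reads GGGANNTGTAGT), was present in 43 of them (18.1%), against 1.98% of all 27025 promoters and 3.91% of those of genes tested. This pattern was looked for after it had been seen in the first sequences, which included genes picked for their differences, so that the differences given next are a description and no independent support. The 43 members with the core had a median difference of 0.084 in susceptible and 0.15 in resilient mice, and the 195 without it had 0.037 and 0.022. Among tested genes that are not members, the 407 with the core had 0.073 and the 10854 without it 0.018 in susceptible mice.

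A larger gap was seen for the GC box GGGCGG, also searched on both strands. All patterns searched can overlap each other by a few bases. It was present in 112 of the 238 members (47.1%), against 35.9% of all promoters and 60.0% of those of genes tested. Members with it had a median difference of -0.037 in susceptible mice, with 48 of 112 above 0, and members without it 0.12, with 91 of 126 above 0. In resilient mice the medians were -0.031 and 0.13. Tested genes other than members had 0.026 with and 0.012 without the GC box in susceptible mice. Among the 43 members with the core, the 8 that also hold a GC box had a median of -0.16 and the 35 that do not had 0.13. Among members without the core, the 104 with a GC box had -0.028 and the 91 that lack it had 0.11. In members without a GC box, the medians with and without the core were thus close, at 0.13 and 0.11.

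Of the other patterns, CCAAT on either strand was present in 46.2% of member promoters and 37.9% of all promoters, the TATA box TATAAA in 5.04% and 14.2%, and the cAMP response element TGACGTCA, its own reverse complement, in 3.78% and 1.88%. Among promoters of genes tested the shares were 38.1% for CCAAT, 8.56% for the TATA box and 3.14% for the cAMP response element. The median susceptible difference was 0.068 with and 0.020 without CCAAT. The full palindromic glucocorticoid response element was in 0 of 238 member windows and in 1 of all 27025, so these windows hold too few to compare. These counts describe letters in 1 window per gene, and probe and transcript composition differ along with them; their part in the differences was not tested.

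**Figure D5:**
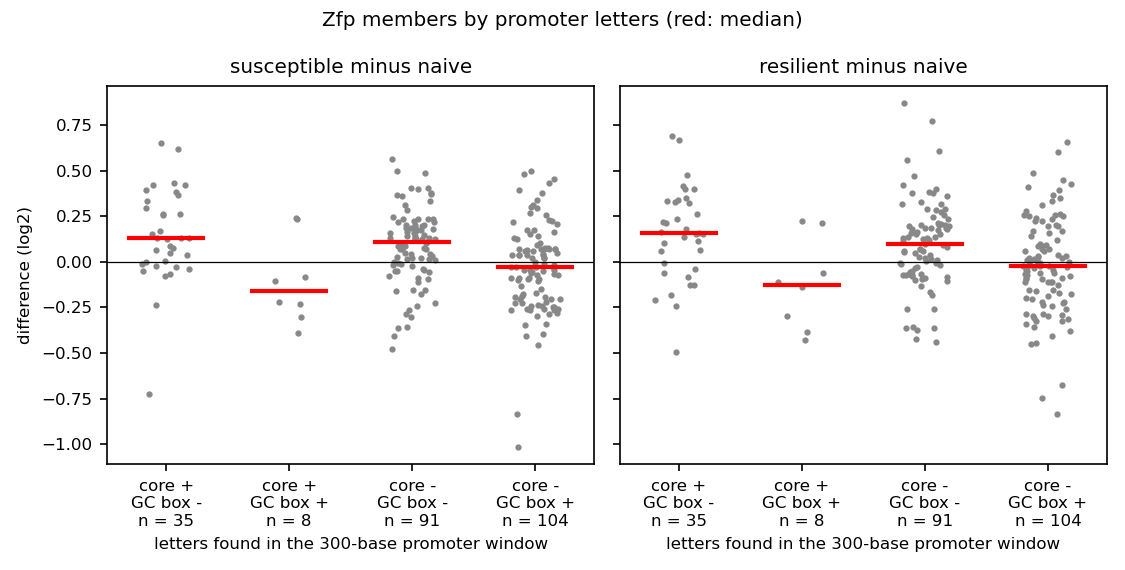
Differences from naive mice (vertical axis, log2) of susceptible (left) and resilient mice (right) for the 238 Zfp genes with a promoter window, split by presence (+) or absence (-) of the core and the GC box (horizontal axis), 1 point per gene with red bars at the medians. The medians in susceptible mice are 0.13, -0.16, 0.11 and -0.028 from left to right, and the points of all 4 classes overlap widely.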

How the data were processed

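RNA of 14 mPFC samples (35 ng each, 1 mouse per array) was measured on 1-colour Agilent arrays. Per the file headers, the scanner output was made with Agilent Feature Extraction 11.0.1.1. Its deposited linear intensity per spot had the background subtracted, with no step between arrays. The authors also deposited log2 values, which here differed from the log2 scanner signal by a constant for each array that set the 75th percentile near 0. Control spots (3671 of 62976) and outlier spots (104 to 184 per array) were left out, spots of a probe were averaged, and each array's 75th percentile of log2 signal was subtracted. Between 48.0% and 65.4% of spots were well above background, and 0 were saturated; the number of arrays limits the precision. Of 55681 probes, 27509 were named through RefSeq accessions (GRCm38.p6, used for names and gene order). A probe was tested if every array of some group read it well above background (14453 genes, brightest probe per gene).

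Groups came from the labels. The 3 groups were fitted together with limma 3.58.1 in R 4.3.3 (lmFit, eBayes, no covariate), with Benjamini-Hochberg adjustment over all genes. On simulated arrays of 14453 genes the fit was tested for recovery of known changes. The labels speak of independent experiments but do not assign mice to them, so experiment was not analysed here. Same-numbered mice of different groups had correlations of their deviations from -0.38 to 0.71, and the numbers were not used as pairs. The members and gene lists were chosen with earlier results of these data known. Named are members past the threshold, in a direction with fewer than 5 of these the 5 with the smallest p, the 3 largest and 3 smallest residual SDs, 14 genes fixed by name, and others said to be chosen after their values were seen. Classes of KRAB domain and finger number were not used here. Alternatives were other scalings, background correction, filters, probe rules, blocks, thresholds and leaving out each array; arrays of scan day 1 alone, leaving out arrays in the blocked fit and the core pattern were added after the data were seen.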

Additional observations from a re-analysis of the deposited data

Results flagged for a closer look

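Of 66 sets of values, each the naive or the susceptible mice for 1 named gene, 5 held a mouse far from the others by Dixon's criterion, which chance meets in about 1 of 20. Naive mouse 3 stood apart for Zfp423, with 2.36 against 1.33 to 1.49 in the other naive mice, for Zfp521, with 0.16 against -1.03 to -0.73, and for Zfp292, with -1.02 against -0.44 to -0.29. It also was the array on which 14 of the 18 Zfp genes just outside the rule failed to rise above background, and it was the dimmest array (75th percentile of log2 signal 7.25). Susceptible mouse 6 had the lowest Zfp148 level, 2.79 against 3.21 to 3.44, and susceptible mouse 1 had the highest Zfp568 level, -2.0 against -2.71 to -2.48.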

How the results depend on the processing

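In susceptible against naive mice the count of 6 members past the threshold became 11 with quantile normalisation, 10 with the percentile over detected probes, 10 with the mean of a gene's probes, 0 with normexp, 1 without a filter on dim probes, 1 with the 2 groups alone, 33 with slide, 37 with scan day as a block, 32 with brightness as a covariate, 42 on the arrays of scan day 1 and 23 at a threshold of 0.10; leaving out 1 array gave 1 to 16. In resilient against naive mice the count of 0 became 1 with quantile normalisation, 1 with the mean of probes, 7 with slide, 28 with scan day, 17 with brightness, 30 on the arrays of scan day 1 and 4 at 0.10, with 0 to 2 without 1 array. The balance of directions also moved. In susceptible against naive mice, members higher and lower were 25 and 8 with slide, 27 and 10 with scan day and 25 and 7 with brightness. On the arrays of scan day 1 they were 20 and 22. In resilient against naive mice they were 5 and 2 with slide, 19 and 9 with scan day, 13 and 4 with brightness and 15 and 15 on scan day 1. Counts over all genes mostly moved the same way as the member counts. In susceptible against naive mice, 376 of 14453 became 580 with quantile normalisation, 111 with normexp and 2213 with slide. It became 2501 with scan day, 1464 with brightness, 1940 on scan day 1 and 1423 at 0.10. In resilient against naive mice, 22 became 511 with slide, 1467 with scan day, 1098 with brightness and 1630 on scan day 1. With the mean of probes it became 21, while the member count rose. In susceptible against resilient mice the count of members was 0 under every alternative run. With the replicate block, whose numbers do not pair these mice, the counts were 27 and 8, and the medians over members were 0.058 and 0.026; Zfp281 and Zfp57 in resilient mice then had differences of 0.082 and -0.049. The median over members, 0.046 in susceptible against naive mice, became 0.064 with quantile normalisation, 0.018 with normexp, 0.062 with the mean of probes, 0.063 with brightness and 0.027 on scan day 1, with 0.024 to 0.061 without 1 array. In resilient against naive mice, 0.044 became 0.065 with the percentile over detected probes, 0.015 with normexp, 0.061 with the mean of probes, 0.028 with slide, 0.011 with scan day, 0.058 with brightness and -0.0049 on scan day 1, with 0.019 to 0.069 without 1 array. In susceptible against resilient mice, 0.0091 became -0.0042 with the percentile over detected probes, with -0.017 to 0.021 without 1 array. Signs turned for these genes: in resilient mice Zfp281 became 0.13 with slide, 0.12 with scan day and 0.091 on scan day 1, Zfp57 became -0.022 with normexp, -0.11 with slide, -0.16 with scan day and -0.099 on scan day 1, and Zfp536 became 0.0038 with the percentile over detected probes and 0.0060 with the mean of probes. In susceptible mice Zfp281 became 0.015 with slide and 0.011 with scan day, Zfp568 -0.028 with normexp, Zfp57 0.067 with the mean of probes and Zfp809 -0.0031 on scan day 1. Without 1 array the differences ran from -0.052 to 0.041 (Zfp281), -0.011 to 0.25 (Zfp292), -0.10 to 0.078 (Zfp536) and -0.056 to 0.10 (Zfp57) in resilient mice and from -0.079 to 0.051 (Zfp281) in susceptible mice. The cause of these changes was not tested.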
